A study of Mus musculus with 40 samples.

Results

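The nuclei described here are those that the study's authors annotated as CNT, the connecting tubule, in single-nucleus RNA-seq of the mouse right kidney. They were taken as all nuclei with that name in the coarser of the 2 annotation columns, which gave 494 of 16500 nuclei. The other column names the same 494 nuclei. They came from 4 male C57BL/6 mice of 8 to 12 weeks, 24 h after surgery. In the 2 mice of the nephrectomy group (UNx) the left kidney had been removed. The 2 sham mice had the same operation with the kidney left in place, and both groups had isoflurane anaesthesia, saline and buprenorphine. Sham mouse 1 gave 177 CNT nuclei of 5342, sham mouse 2 gave 88 of 2641, UNx mouse 1 gave 139 of 5151 and UNx mouse 2 gave 90 of 3366. Bulk RNA-seq of 36 other mice of the same sex, strain and age range, collected 24, 48 or 72 h after surgery (6 sham and 6 UNx mice per time), served as a further view of the genes that mark the class.

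The connecting tubule links the distal convoluted tubule to the collecting duct. Its cells take up calcium from the urine through the channel TRPV5, carry it across the cell on calbindin, and pass it to the blood through the sodium-calcium exchanger NCX1, which Slc8a1 encodes, and the pump PMCA. Parathyroid hormone, vitamin D and klotho act on this route. The segment also holds the epithelial sodium channel ENaC, which responds to aldosterone, and potassium channels that secrete potassium.

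The label was checked against 3 markers, Calb1 (calbindin-D28k), Slc8a1 and Scnn1g (the gamma subunit of ENaC). All 494 nuclei held at least 1 UMI (a counted RNA molecule) of one of them, but this separates the class poorly: Slc8a1 alone had a UMI in 90.5% to 100.0% of nuclei of the neighbouring cortical principal cells by mouse, and in 83.8% and 72.6% of nuclei of the proximal tubule class PTS1 in sham mouse 2 and UNx mouse 2. Scnn1g was more selective against PTS1, with a UMI in 79.5% to 88.5% of CNT nuclei and 0.260% to 5.95% of PTS1 nuclei. Among cortical principal cell nuclei, however, 60.5% to 79.5% held one. Levels are in CPM, a gene's UMIs scaled to a total of 1000000 for the nuclei of 1 class in 1 mouse. Slc8a1 averaged 33603 ± 19488 in CNT (SD, n = 4 mice), 20815 ± 11209 in distal convoluted tubule nuclei (DCT) and 1864 in the next of the 23 classes with at least 10 nuclei in every mouse, called Per. Scnn1g averaged 432 ± 166 in CNT, 301 ± 101 in cortical principal cell nuclei (CPC, the collecting duct cells that take up sodium and water) and 34.8 in the next class, Uro. Calb1 averaged 1586 ± 565 in CNT and 1594 ± 893 in DCT, which did not differ beyond their spread, and 223 in CPC. So each marker was shared with a neighbour along the tubule, the calcium genes with DCT and the sodium channel with CPC.

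The second mouse of each group stands apart from the first, and the labels put the first mice in batch 3 and the second in batch 4. The CNT nuclei gave 1185014 UMIs in sham mouse 1, 1077552 in sham mouse 2, 1007805 in UNx mouse 1 and 1013539 in UNx mouse 2, with median totals per nucleus of 6580, 7727, 7016 and 8429 UMIs in the same order. In that order, the median share of mitochondrially encoded UMIs per CNT nucleus was 0.719%, 6.25%, 1.19% and 8.68%. Nuclei above 20000 UMIs numbered 0, 11, 0 and 11, and those of batch 4 held 39.3% of the class's UMIs in sham mouse 2 and 33.9% in UNx mouse 2. Markers of other kidney cells were also higher in batch 4. The 9 proximal tubule markers summed to 3381, 12282, 4904 and 13203 CPM in the CNT nuclei, and the 5 thick ascending limb markers to 190, 2802, 221 and 3064 CPM. Of the markers of other cell types, only Cd3e of T cells was at 0 in all 4 mice. Between libraries, 18 barcodes were shared, 1 of them by a CNT nucleus. The nephrectomy comparisons in nuclei are therefore given by mouse for the genes that are described.

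Some genes were much higher in CNT than in every other class. The 8 that reached at least 50 CPM in the sham mice and at least 2 times the sham level of each other class are the leading genes, and since the classes were made from these nuclei their levels are a description with no test. Egfem1, which encodes a protein with EGF-like domains, averaged 3258 CPM over the sham mice, 15.4 times its level in CPC. It spans chr3:29082023-29691209 on the plus strand (mm10). Slc2a9, the urate and hexose transporter GLUT9, averaged 872 CPM, 7.14 times its level in DCT. Trpv5, the calcium channel of the luminal membrane, averaged 190 CPM, 3.90 times its level in DCT. Adamts16, a secreted metalloproteinase, averaged 437 CPM, 3.25 times its level in CPC. The other 4 were the long noncoding RNA AI838599, at 2.44 times the next class, Cdo1 (cysteine dioxygenase) at 2.29 times, the noncoding gene Gm26618 at 2.22 times, and Depdc7 at 2.03 times. Just outside the rule were Cav1, the caveola protein, at 1.99 times its level in CPC, and Sdk1, an adhesion molecule, at 1.89 times the next class. Over the 4 mice, all 22 other classes lay wholly below CNT for Egfem1, Slc2a9, Trpv5, Adamts16 and AI838599, 21 for Cdo1, 20 for Depdc7 and 17 for Gm26618.

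The promoters of 2 class genes (leading genes or markers) are shown. Slc8a1 was the one marker of the class called in the nephrectomy comparison with the batch as a block. Of the 7 class genes with a matched promoter, only Slc2a9 held the hexamer AGGTCA there, which many nuclear receptors read. Each promoter is 300 bases, 250 before to 50 after a RefSeq start of the gene on GRCm38.p6. They are printed 5′ to 3′ on the gene's strand. The Slc8a1 promoter is chr17:81738338-81738637 on the minus strand and the Slc2a9 promoter is chr5:38483336-38483635 on the minus strand. In GENCODE M21 Slc2a9 spans chr5:38349273-38503143, so its window lies inside the gene and not at its M21 start. Capitals mark AGGTCA, which in Slc2a9 lies on the other strand and so reads TGACCT.
Slc8a1: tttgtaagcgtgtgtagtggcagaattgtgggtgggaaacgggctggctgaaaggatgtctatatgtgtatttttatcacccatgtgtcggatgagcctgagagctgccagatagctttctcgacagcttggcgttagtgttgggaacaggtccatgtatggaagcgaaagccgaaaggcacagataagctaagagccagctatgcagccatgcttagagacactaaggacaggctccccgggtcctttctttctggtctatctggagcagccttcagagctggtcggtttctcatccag
Slc2a9: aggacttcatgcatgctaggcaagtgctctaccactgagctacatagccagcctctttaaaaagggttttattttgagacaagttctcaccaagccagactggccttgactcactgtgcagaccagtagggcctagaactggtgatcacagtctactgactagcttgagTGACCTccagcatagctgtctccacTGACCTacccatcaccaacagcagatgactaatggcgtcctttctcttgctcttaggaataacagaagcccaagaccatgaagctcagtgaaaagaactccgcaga
RefSeq promoters matched 7 of the 11 class genes (the 8 leading genes and the 3 markers), 8 promoters in all. On both strands, the letters AGGTCA stood in 1 of these 8 and in 16.3% of 32851 promoters of the same length. A vitamin D response element, taken as a pair of AGGTCA with 3 bases between, stood in 0 of the 8 and in 0.00609% of all. TGTTCT, read by steroid receptors, stood in 2 of the 8, those of Egfem1 and Gm26618, against 19.0% of all, and GCCNNNGGC, read by AP-2 factors, in 3 of the 8, of Depdc7 and Egfem1, against 16.6%. The Slc8a1 promoter held none of these letters in this window.

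**Figure D1:**
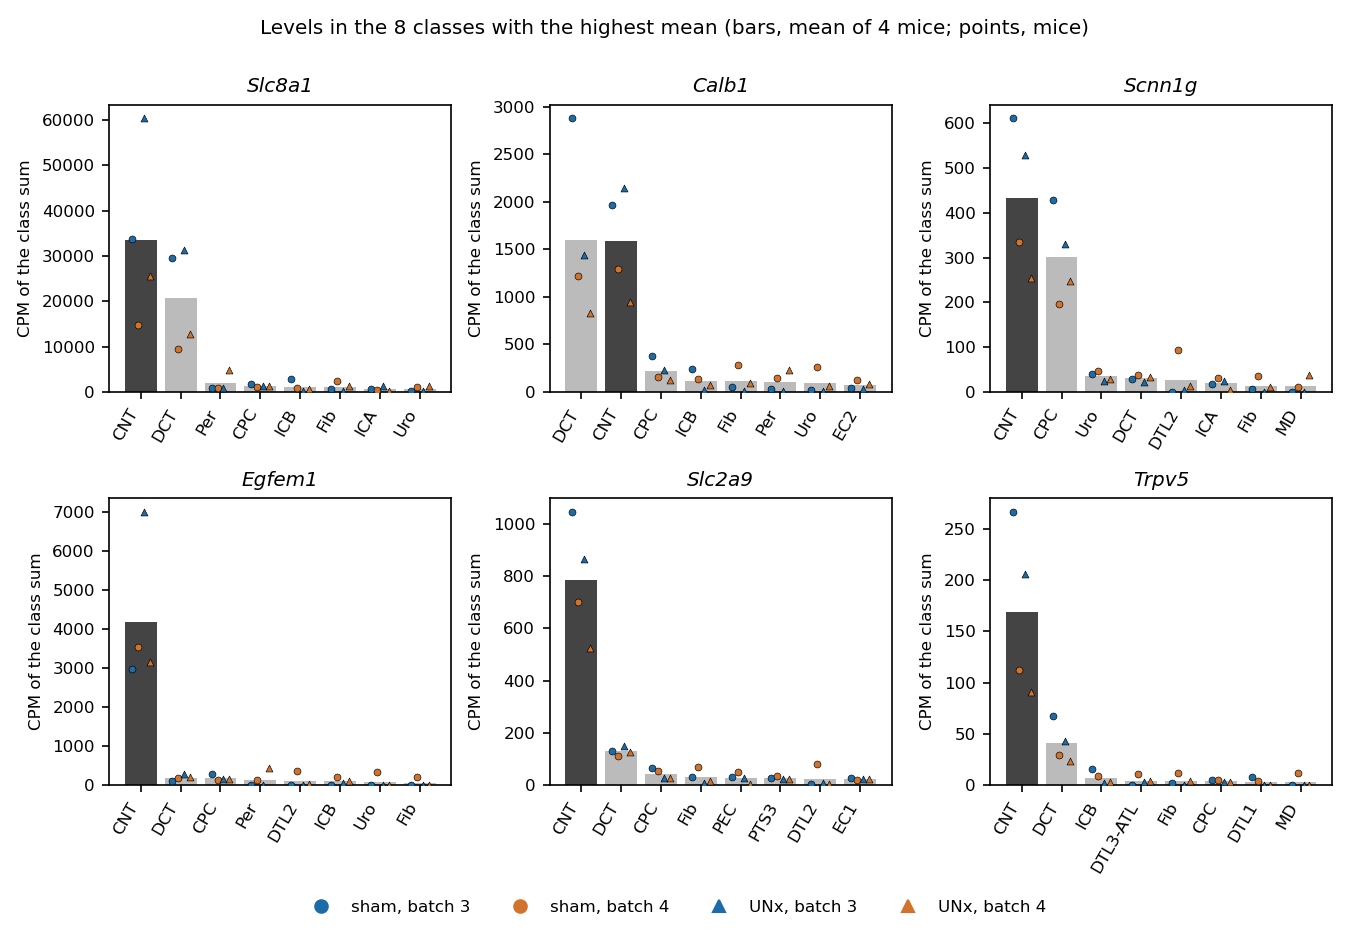
Levels of 6 genes (CPM of a class's summed UMIs) in the 8 classes with the highest mean for each gene, with bars at the mean of 4 mice and points for single mice, coloured by batch and shaped by group. Egfem1, Slc2a9 and Trpv5 lie above every other class in all 4 mice, whereas Slc8a1 and Calb1 overlap with DCT and Scnn1g with CPC.

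Other genes of the calcium route had their own order over the classes. Vdr, the vitamin D receptor, averaged 608 ± 247 CPM in CNT (n = 4 mice), 478 ± 143 in DCT and 293 ± 106 in PTS2, a proximal tubule class, so CNT and DCT overlapped. Kl (klotho, the co-receptor of FGF23) averaged 1314 ± 458 CPM in CNT and 811 ± 273 in DCT, with 21 of 22 other classes wholly below CNT. Casr, the calcium-sensing receptor, averaged 122 ± 60.3 CPM in CNT and 744 ± 136 in the thick ascending limb class CTAL1. Trpv6, a close relative of Trpv5, was close to absent, at 2.04 ± 1.47 CPM. S100g (calbindin-D9k) averaged 370 ± 129 CPM in CNT and 285 ± 207 in the next class, and no class lay wholly below CNT. Klk1, tissue kallikrein, a secreted protease of the connecting tubule, averaged 408 ± 133 CPM in CNT and 385 ± 206 in the macula densa class (MD), again with no class wholly below. For both genes CNT had the highest mean of the classes, but single mice of every other class overlapped with it.

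Scnn1b, Nr3c2 and Hsd11b2 stood close to their levels in CPC, whereas other genes of sodium and potassium transport had another order over the classes. Scnn1b, the beta subunit of ENaC, averaged 759 ± 260 CPM in CNT and 618 ± 122 in CPC, and 189 in the next class. The mineralocorticoid receptor gene Nr3c2 averaged 1931 ± 728 CPM in CNT and 2002 ± 827 in CPC, and Hsd11b2, the enzyme that protects that receptor from glucocorticoids, 200.3 ± 81.7 and 225 ± 95.1. These values of CNT and CPC lie within each other's spread. Scnn1a, the alpha subunit of ENaC, averaged 162 ± 48.7 CPM in CNT, 145 ± 44.7 in the intercalated class ICB and 134 ± 23.5 in CPC. Wnk4 averaged 185 ± 55.9 CPM in CNT and 288 ± 57.3 in DCT. The potassium channel gene Kcnj1 averaged 295 ± 63.3 in CNT and 348 ± 52.9 in the thick ascending limb class CTAL2.

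A UMI of a neighbour's defining gene was common, and more so in batch 4. Slc12a3, the thiazide-sensitive sodium chloride cotransporter that defines DCT, had a UMI in 16.9% of CNT nuclei of sham mouse 1, 76.1% of sham mouse 2, 17.3% of UNx mouse 1 and 61.1% of UNx mouse 2. In the proximal tubule class PTS1, which should lack the gene, the shares were 11.3%, 74.9%, 13.0% and 56.7%. The median depth of PTS1 nuclei was 10423, 10785, 12415 and 8358 UMIs. With each nucleus thinned to 2500 UMIs, Slc12a3 had a UMI in 10.2%, 30.7%, 10.1% and 25.6% of CNT nuclei and in 2.83%, 31.8%, 2.73% and 25.4% of PTS1 nuclei, so CNT stood above PTS1 in batch 3, whereas in batch 4 it was below in sham mouse 2 and nearly level in UNx mouse 2. Aqp2, the water channel of principal cells, had a UMI in 17.0%, 38.6%, 17.3% and 34.4% of thinned CNT nuclei, against 4.09%, 30.1%, 3.25% and 21.9% of PTS1 nuclei, so CNT was higher in all 4 mice. Unthinned, the Aqp2 shares were 37.9%, 78.4%, 34.5% and 68.9% in CNT and 11.5%, 72.7%, 12.6% and 51.9% in PTS1. Trpm6, the magnesium channel of DCT, had a UMI in 79 of 177, 44 of 88, 66 of 139 and 44 of 90 CNT nuclei, in the order of the mice. In PTS1 it had one in 20 of 959, 84 of 538, 13 of 770 and 23 of 430 nuclei, so CNT stood above this level in all 4 mice.

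CNT nuclei varied widely among themselves in Slc8a1. In each mouse all of them held a UMI of it, and its share of a nucleus's UMIs ran, in sham mouse 1, from 0.685% at the lower quartile to 4.89% at the upper. To see what moved with it, the nuclei of each mouse were split at that mouse's median share of Slc8a1. Levels were then compared between the upper and lower nuclei, as CPM with the UMIs of Slc8a1 left out of the total. These ratios describe nuclei of 1 class within a mouse and have no test. Depth was not matched between the upper and lower nuclei. In batch 4 the nuclei above 20000 UMIs stood at 9193 CPM of Slc8a1 in sham mouse 2 and 10629 in UNx mouse 2. They held 39.3% and 33.9% of the class's UMIs in these mice, and their part in the ratios was not tested. Trpm6 was 3.15 to 5.28 times higher in the upper nuclei over the 4 mice, Calb1 2.36 to 5.01 times, Vdr 1.65 to 3.77 times and Kl 1.36 to 3.56 times. Egfem1 was 1.52 to 2.39 times higher and S100g 1.18 to 2.02 times, each in all 4 mice. The channel Trpv5 was higher in the upper nuclei in only 2 of 4 mice, with ratios from 0.796 to 2.86. The ENaC and aldosterone genes did not share the direction in every mouse either. Scnn1g was higher in 3 of 4 mice, with ratios from 0.998 to 2.11. Scnn1b was higher in the upper nuclei in 2 of 4 mice, with ratios from 0.775 to 1.72, as were Nr3c2 (0.764 to 1.72) and Hsd11b2 (0.564 to 1.61). For Scnn1b, Nr3c2 and Hsd11b2 both mice of batch 3 had ratios below 1 and both of batch 4 above 1. Aqp2 was higher in the upper nuclei in 1 of 4 mice, with ratios from 0.328 to 1.10. Slc12a3 had no common direction, from 0.216 to 8.78. Inside the class, then, Trpm6, Calb1, Vdr, Kl, Egfem1 and S100g were higher with Slc8a1 in every mouse, whereas Trpv5, Scnn1g, Scnn1b, Nr3c2, Hsd11b2 and Aqp2 were not.

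**Figure D2:**
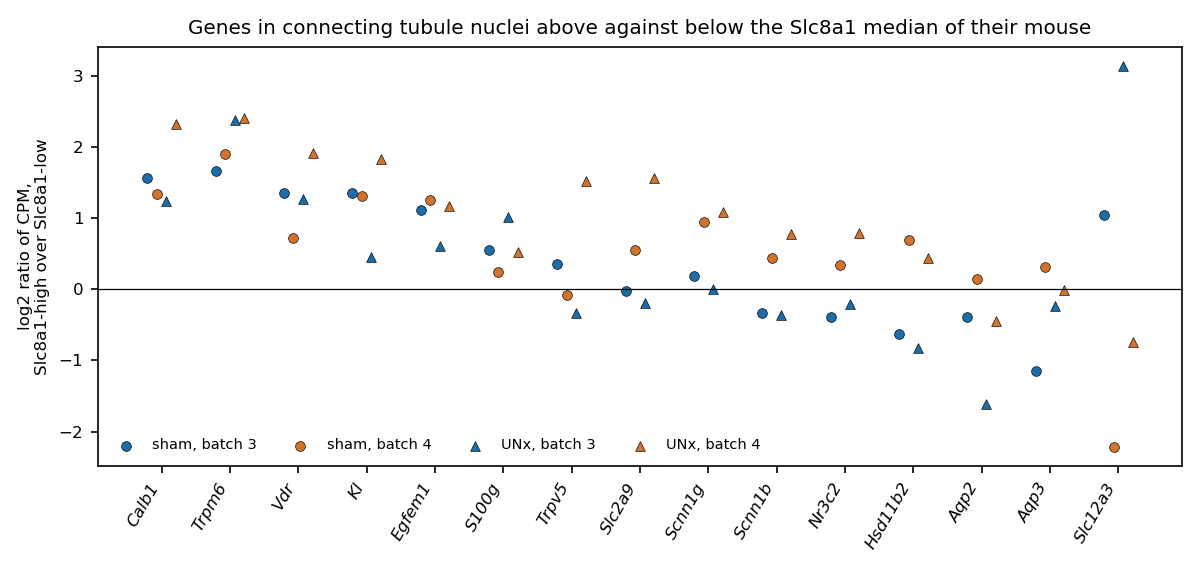
Log2 ratio of the level (CPM) in CNT nuclei above their mouse's median share of Slc8a1 to that in the nuclei below it. The CPM leaves the UMIs of Slc8a1 out of the total, and each point is 1 mouse, for 15 genes. Trpm6, Calb1, Vdr, Kl, Egfem1 and S100g lie above 0 in all 4 mice, whereas Scnn1b, Nr3c2 and Hsd11b2 lie below 0 in the mice of batch 3 and above 0 in those of batch 4.

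The first comparison of the groups was the share of nuclei in the class. CNT nuclei were 3.31% of all nuclei in sham mouse 1 (95% Clopper-Pearson interval 2.85 to 3.83) and 3.33% in sham mouse 2 (2.68 to 4.09). They were 2.70% in UNx mouse 1 (2.27 to 3.18) and 2.67% in UNx mouse 2 (2.16 to 3.28). Both UNx mice thus lay below both sham mice, with a difference of means of -0.64 percentage points, though the interval of each UNx mouse overlaps those of the sham mice. Among nuclei outside the 3 proximal tubule classes, the shares were 5.49% and 5.61% in sham and 4.37% and 4.34% in UNx. An exact permutation test (two-sided) of 2 mice against 2 cannot give a p below 0.333, so none could pass, and the intervals cover counting error only. The share of DCT nuclei was also lower in UNx within each batch, 4.87% against 5.95% and 5.79% against 8.63%, whereas CPC was 2.87% against 2.83% in batch 3 and 2.26% against 2.57% in batch 4.

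Of the 3 markers of the class, Slc8a1 alone was higher in UNx in both batches. It stood at 33689.6 CPM in sham mouse 1 and 60418 in UNx mouse 1, a ratio of 1.79, and at 14745 in sham mouse 2 and 25559 in UNx mouse 2, a ratio of 1.73. The groups overlap, since UNx mouse 2 lies below sham mouse 1. In the edgeR quasi-likelihood fit without a block, no gene of 10262 passed an adjusted p of 0.05, which is 0% (34 genes, 0.331%, had an unadjusted p under 0.05), and Slc8a1 had a log2 fold change of 0.86 ± 0.95 (SE) with an adjusted p of 1. DESeq2 and limma voom also called 0 genes, with 10 and 23 genes at an unadjusted p under 0.05. Because the labels tie the replicate number to the batch, the same test was run with batch as a block. It called 47 genes, 0.458% of those tested, 27 higher (0.263%) and 20 lower (0.195%), and Slc8a1 was among them, with a log2 fold change of 0.87 ± 0.18 and an edgeR adjusted p of 0.020. That fit leaves 1 residual degree of freedom for each gene, so it leans on the spread shared over genes.

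Slc8a1 lies at chr17:81373105-81738377 on the minus strand. Its rise with the block held in 6 other fits with the block, which gave adjusted p from 8e-06 (voom) and 0.0002 (DESeq2) to 0.035 (edgeR, with the nuclei above 20000 UMIs left out). It was seen across nuclei, not in a few. The median share of a nucleus's UMIs was 1.93% in sham mouse 1 and 5.43% in UNx mouse 1, and 1.07% in sham mouse 2 and 2.49% in UNx mouse 2. Of the UNx nuclei, 105 of 139 (75.5%) lay above the median of the sham mouse in batch 3 and 65 of 90 (72.2%) in batch 4. It was also higher in UNx in both batches within 2 ranges of depth. In nuclei under 7000 UMIs the levels were 27818 and 10814 CPM in sham and 49249 and 36240 in UNx, and in nuclei of 7000 to 20000 UMIs 38279 and 20748 CPM in sham against 67418 and 32063 in UNx. The ratio in batch 4 was thus larger in the first range. The nuclei above 20000 UMIs, found only in batch 4, stood at 9193 CPM in sham mouse 2 and 10629 in UNx mouse 2 (11 nuclei each).

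**Figure D3:**
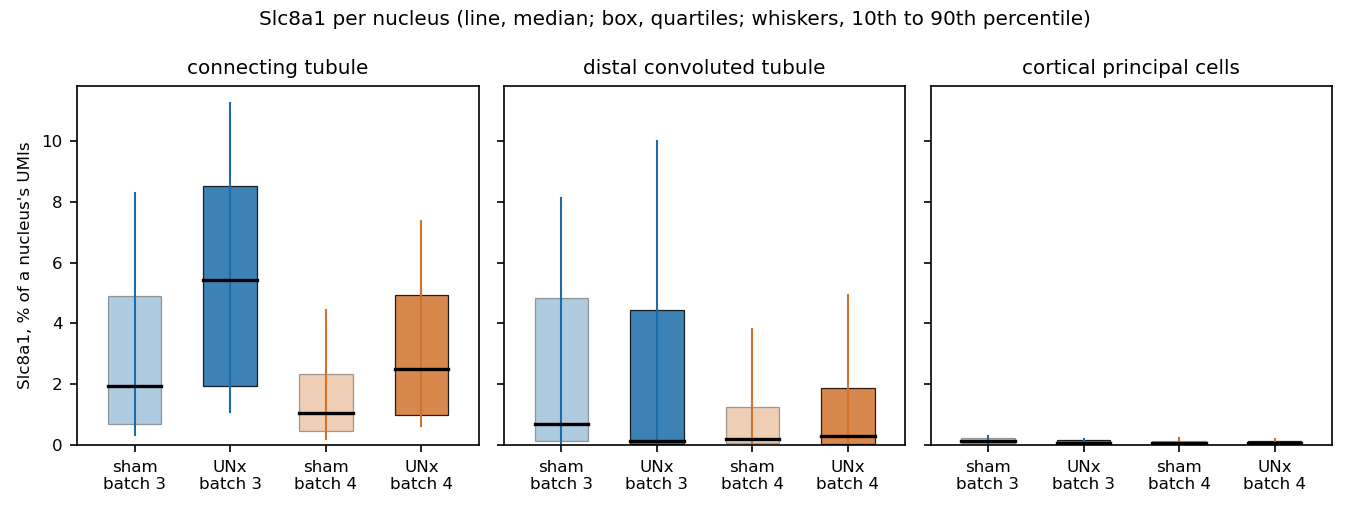
Slc8a1 as a percent of a nucleus's UMIs in CNT, DCT and CPC nuclei of each mouse, with lines at medians, boxes at quartiles and whiskers from the 10th to the 90th percentile. In CNT the medians are 1.93% and 1.07% in the sham mice and 5.43% and 2.49% in the UNx mice of the same batches, and CPC lies close to 0.

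The other parts of the calcium route did not all follow Slc8a1. Of the 20 genes of calcium and magnesium transport listed, 17 had enough counts to be tested, 7 were higher and 10 lower in UNx, and 1, Slc8a1, passed with the block, beside 0.458% of all genes. Their median log2 fold change was -0.04, and that of all genes 0.00. With the block, Vdr and S100g missed the threshold in the edgeR fit and passed it in some of the 6 other fits. Vdr stood at 640 and 345 CPM in sham and 931 and 516 in UNx, 1.46 and 1.49 times higher within the batches, with a log2 fold change of 0.61 ± 0.15 and an edgeR adjusted p of 0.081 with the block. It passed with voom (adjusted p = 0.028), without proximal tubule and mitochondrially encoded genes (0.035) and with thinned sums (0.036). Vdr was also higher in UNx in both batches in 10 of the 22 other classes, and lower in both in 3. DCT was among the 10, with Vdr at 554 and 328 CPM in sham and 638 and 394 in UNx. The difference of log2 fold change, CNT minus DCT, was 0.35 ± 0.19 (SE). S100g stood at 360 and 550 CPM in sham and 245 and 326 in UNx, a log2 fold change of -0.61 with an edgeR adjusted p of 0.097 with the block. It passed with voom (adjusted p = 0.047) and thinned sums (0.037). In 19 of the 22 other classes S100g was also lower in UNx in both batches. Kl was 1389 and 902 CPM in sham and 1929 and 1035 in UNx (edgeR adjusted p = 0.42 with the block). Casr was 200.1 and 99.3 CPM in sham and 133 and 57.2 in UNx (edgeR adjusted p = 0.17 with the block).

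None of the 8 leading genes was called with the block, beside 0.458% of all genes. Of the 8, 4 were higher and 4 lower, and their median log2 fold change was -0.12. Egfem1 stood at 2969 and 3550 CPM in sham and 7012 and 3163 in UNx, 2.36 times higher in batch 3 and 0.891 times in batch 4. Trpv5 stood at 267 and 112 CPM in sham and 206 and 90.8 in UNx, and Calb1 at 1970 and 1290 in sham and 2142 and 943 in UNx. Calb1 was higher in UNx in batch 3 and lower in batch 4, with a log2 fold change of -0.11 ± 0.16 and an edgeR adjusted p of 0.96 with the block. These p-values do not show that the levels were equal.

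Of the 22 genes of sodium and potassium transport, all were tested, 9 were higher and 13 lower, and 0 passed with or without the block, beside 0.458% and 0% of all genes. The median log2 fold change was -0.03. Scnn1g stood at 611 and 335 CPM in sham and 530 and 254 in UNx, and Scnn1b at 859 and 523 in sham and 1080 and 573 in UNx. Wnk4, a kinase that regulates salt transport, stood at 148 in each sham mouse and at 266 and 180 in UNx, with an edgeR adjusted p of 0.13 with the block. Klk1 stood at 400.1 and 585 CPM in sham and 263 and 384 in UNx, also with an edgeR adjusted p of 0.13 with the block, and it was lower in both batches in 8 of the 22 other classes.

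Of the 16 genes of steroid hormone receptors and response, 12 were lower in UNx, 10 of them in both batches, beside 32.0% of all genes, and the median log2 fold change was -0.22. With the block 1 gene was called, Zbtb16 (PLZF, a transcription factor that glucocorticoids induce), which fell by 1.35 on the log2 scale with an edgeR adjusted p of 0.025. It stood at 43.1 and 94.7 CPM in sham and 13.9 and 38.5 in UNx, and the groups did not overlap. Its sham mean was 68.9 CPM in CNT and 205 in Per, the class where it was highest. Sgk1, the aldosterone-induced kinase that raises ENaC activity, was at 54.0 and 87.3 CPM in sham and 36.7 and 50.3 in UNx (edgeR adjusted p = 0.45 with the block).

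Other lists were fitted in the same way. Beside them, 5113 of all 10262 genes were higher without the block and 0.458% were called with it. At that share, 0 calls in a short list says little about its members. In cholesterol synthesis 13 of 18 tested genes were higher and 5 lower, with a median log2 fold change of 0.36 and 0 calls with the block. In both batches 8 were higher and 2 lower, beside 20.7% and 32.0% of all genes. Of 2 members, Stard4, a sterol carrier, stood at 36.3 and 20.4 CPM in sham and 47.6 and 40.5 in UNx, and Srebf2, the regulator of the pathway, stood at 44.7 and 74.3 in sham and 68.5 and 79.9 in UNx. In the unfolded protein response 10 of 14 tested genes were higher, with a median of 0.22, and 1 was called with the block, Hspa5 (the chaperone BiP), at 25.3 and 131.8 CPM in sham and 61.5 and 218 in UNx (edgeR adjusted p = 0.020), beside 0.458% of all genes. This call was lost with the nuclei above 20000 UMIs left out (edgeR adjusted p = 0.062 with the block). All 13 mitochondrially encoded genes were higher, with a median of 0.75, and 4 were called with the block, beside 0.458% of all genes. The mitochondrial sum of the class was 7506 and 57586 CPM in sham and 12059 and 84848 in UNx, so it followed the batch more than the group. Over all nuclei of each mouse, the median mitochondrial share was 0.608% and 5.13% in sham and 1.02% and 7.47% in UNx. The rise within batches was thus not particular to CNT. Genes of fatty acid oxidation had a median of 0.13, 14 of 21 higher, and those of water and vasopressin a median of 0.03, 7 of 11 higher, with 0 calls in each with the block. In 9 further lists (transcription factors, cell junctions, growth factors and mTOR, nuclear-encoded respiratory chain, ribosomal proteins, immediate early genes, circadian clock, hypoxia, tubular injury) medians lay between -0.09 and 0.19 with 0 calls. Of 29 genes of DNA replication and mitosis only 3 had enough counts to be tested.

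With the block, of the 27 genes called higher, 16 were at their highest sham level in a proximal tubule class, and of the 20 lower, 6 were. As background, 10262 genes were tested in all. With the genes highest in these classes and the mitochondrially encoded genes left out, 8916 were tested, so most tested genes were of neither kind. Of the calls, 7 of the 27 higher and 14 of the 20 lower were of neither kind. Called genes highest in a proximal tubule class included Keg1, at 98.8 and 1525 CPM in sham and 60.5 and 446 in UNx. Another was Cyp7b1, an oxysterol hydroxylase, at 119 and 85.4 in sham and 164 and 327 in UNx. Odc1, the first enzyme of polyamine synthesis, stood at 29.5 and 92.8 in sham and 71.5 and 204 in UNx (edgeR adjusted p = 0.0032 with the block). The proximal tubule markers summed to more in UNx than in sham within both batches of CNT nuclei, as given above, but without Kap, a proximal tubule gene found in all classes, they summed to 366 and 4563 CPM in sham and 373 and 4011 in UNx, 1.02 times in batch 3 and 0.879 times in batch 4. A further 4 were mitochondrially encoded, such as mt-Nd5, at 90.3 and 1274 CPM in sham and 187 and 2700 in UNx. The part of free or carried-over RNA in these calls was not tested. With genes of both kinds left out, the block fit called 33 genes. In all, 46 of the 47 had the same direction in both batches, beside 20.7% of all genes higher and 32.0% lower in both. The exception, the predicted gene Gm42047, is outside the rule for naming and had the lowest p with the block (edgeR adjusted p = 9.9e-05). It was 0.588 times in batch 3 and 19.8 times in batch 4, with counts of 4 and 12 in sham and 2 and 224 in UNx. The groups did not overlap for 15 of the 47, beside 7.17% of all genes higher and 11.2% lower without overlap, and the test itself favours such genes. Of the 47 genes, 14 carry only a predicted or clone name.

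**Figure D4:**
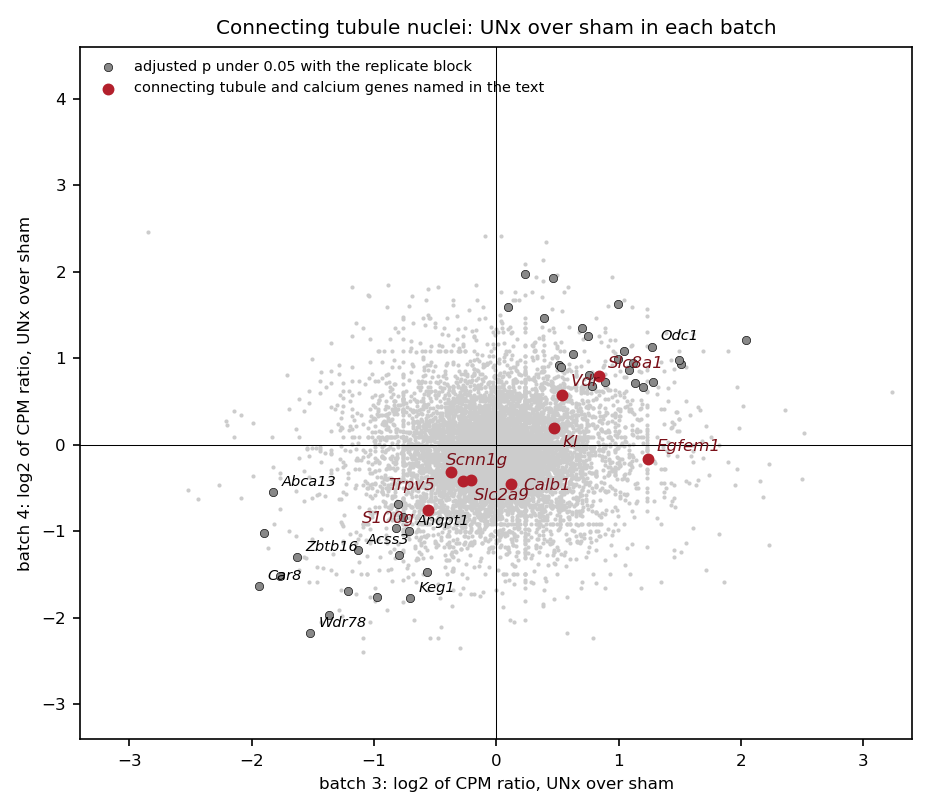
Log2 ratio of the level (CPM) in UNx to that in sham, in batch 3 (horizontal) and in batch 4 (vertical), for 9364 genes with at least 5 counts in every mouse (grey). Dark points are 42 of the genes called with the block and red points are genes of the class and the calcium route. Slc8a1 and Vdr lie above 0 in both batches, S100g and Scnn1g below 0 in both, and Egfem1 above 0 in batch 3 only.

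Among genes of neither kind, the lower ones were the more numerous, 14 against 7 higher. They are named here after their values were seen. Acss3, a mitochondrial short-chain acyl-CoA synthetase, stood at 311 and 183 CPM in sham and 142 and 78.9 in UNx, and fell by 1.12 on the log2 scale (edgeR adjusted p = 0.0018 with the block). Abca13, a lipid transporter of the ABC family, stood at 1280 and 868 in sham and 361 and 595 in UNx, and fell by 1.12 (edgeR adjusted p = 0.0054 with the block). Angpt1, a ligand of the endothelial receptor Tie2, stood at 604 and 379 in sham and 368 and 189 in UNx, and fell by 0.80 (edgeR adjusted p = 0.010 with the block). In these 3 genes the values of the groups did not overlap. Oprm1, the mu opioid receptor, fell by 0.90 (edgeR adjusted p = 0.014 with the block), at 576 and 76.1 CPM in sham and 333 and 31.6 in UNx, where the batches were further apart than the groups. All 4 mice had buprenorphine, an opioid. Zfp981, a zinc finger gene, stood at 326 and 369 in sham and 187 and 229 in UNx (edgeR adjusted p = 0.048 with the block). The calls of Abca13 and Zfp981 were lost in the block fit without the nuclei above 20000 UMIs (edgeR adjusted p = 0.14 and 0.060), and that of Zfp981 also with DESeq2 size factors (edgeR adjusted p = 0.055). With DESeq2 and the block, Abca13 (adjusted p = 0.99), Angpt1 (0.077), Oprm1 (0.089) and Zfp981 (0.31) missed the threshold, and Acss3 was given no adjusted p. Of the higher ones besides Slc8a1 and Hspa5, Chst11, a chondroitin sulfotransferase, stood at 42.2 and 101.2 in sham and 84.4 and 201 in UNx (edgeR adjusted p = 0.0055 with the block, 0.062 without the nuclei above 20000 UMIs). In sham, Oprm1 was highest in CNT. The CNT level was 93.8% of the highest class for Angpt1, 70.9% for Acss3, 52.3% for Zfp981, 22.4% for Chst11 (EC1) and 19.6% for Abca13 (DCT). The part of carried-over RNA was not tested for these genes either.

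Since no gene was called without the block, 10 in each direction were named by lowest p among those whose groups did not overlap. All 20 had an edgeR adjusted p of 1. The higher ones had log2 fold changes from 0.83 (Ap1b1, a subunit of the AP-1 clathrin adaptor) to 1.78 (Zfand2a, an arsenite-induced zinc finger protein). Between these lay Rpap3, a co-chaperone that assembles RNA polymerase II, Ccdc88c, a regulator of Wnt signalling, Cyb5rl, Rad51b of homologous recombination, Slc7a6, a cationic amino acid transporter, Cyp7b1, Klhl26 and Wipf1, which binds WASP. The lower ones had log2 fold changes from -1.01 (Cnot8, a deadenylase) to -1.97 (Zfp385b). Between these lay Wdr78, a dynein subunit of cilia, Clec2d, a lectin, Car8, which binds the IP3 receptor, the noncoding Gas5, Fbrs, Hacl1 of peroxisomal alpha-oxidation, Asna1, which targets tail-anchored proteins, and Slc48a1, a heme transporter. Levels were low: Wdr78, the one with the lowest p, stood at 45.6 and 44.6 CPM in sham and 15.9 and 9.87 in UNx. With the block Wdr78, Clec2d, Car8 and Cyp7b1 were called, with edgeR adjusted p of 0.015, 0.026, 0.028 and 0.0054. Without the nuclei above 20000 UMIs only Wdr78 of these 4 was called with the block (edgeR adjusted p = 0.041), and the others had 0.062, 0.18 and 0.066. Car8 was also lost with voom (adjusted p = 0.052). In sham, the CNT level was 55.9% of the highest class for Wdr78 (PEC) and 40.6% for Clec2d (Fib). It was 4.58% for Car8 (Per) and 4.71% for Cyp7b1 (PTS3). The part of carried-over RNA in these calls was not tested.

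Whether the nephrectomy effect in CNT differed from that in its neighbours was tested as an interaction with the mouse as a block. Against DCT, 0 of 12412 genes passed (273 genes, 2.20%, at an unadjusted p under 0.05; DESeq2 0, with 27). Against CPC, 0 of 11018 passed (255 genes, 2.31%; DESeq2 0, with 21). Slc8a1 differed from DCT by 0.59 ± 0.23 on the log2 scale (edgeR adjusted p = 1, unadjusted 0.028) and from CPC by 0.86 ± 0.32 (edgeR adjusted p = 1, unadjusted 0.025), so the difference did not survive adjustment. In DCT it stood at 29530.1 and 9552 CPM in sham and 31332 and 12847 in UNx, with an edgeR adjusted p of 0.57 with the block. Of DCT nuclei in UNx, 79 of 251 (31.5%) in batch 3 and 106 of 195 (54.4%) in batch 4 lay above the sham median. Of the 22 other classes, 9 had Slc8a1 higher in UNx in both batches, DCT among them, and 4 lower. In 1 of these 9 (PEC) it was at least 1.5 times higher in both, at 84.5 and 132 CPM in sham and 224 and 273 in UNx. Calb1 differed between CNT and DCT by 0.64 ± 0.26 (edgeR adjusted p = 1, unadjusted 0.038). In DCT it stood at 2879 and 1222 CPM in sham and 1438 and 835 in UNx, and fell by 0.75 on the log2 scale with an edgeR adjusted p of 0.035 with the block, which called 0.481% of all genes in DCT.

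By the lowest p, the genes named for the difference from DCT were Defb1 (1.45), Nlgn1 (2.77) and Entpd1 in 1 direction and Zbtb16 (-2.21), Zfp981 (-1.14) and Car8 (-1.78) in the other. Zbtb16 was lower in UNx in both batches of CNT and higher in both of DCT, where it stood at 7.97 and 28.5 CPM in sham and 16.1 and 46.4 in UNx. Defb1, an antimicrobial peptide of the distal tubule, stood at 696 and 482 CPM in sham and 818 and 496 in UNx in CNT, and at 1313 and 545 in sham and 370 and 329 in UNx in DCT. Against CPC they were Alcam (2.11), Gsdmc3 and Nup85 (3.25), and Wdr78 (-2.09), Slc22a15 (-3.26) and Zfp981 (-1.09). Each had an edgeR adjusted p of 1, and Entpd1, Gsdmc3, Nup85 and Slc22a15 stood at under 20 CPM in every mouse of CNT.

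Bulk RNA of whole kidney slices from other mice gave a separate view of the class genes. In bulk, fewer cells of a type and less RNA per cell cannot be told apart, and several of these genes are also made by other classes. Bulk counts RNA of the whole tissue and the nuclei give RNA of the nucleus, so levels and changes in them are unlike measures. Of the 11 class genes, 9 had enough counts. Levels are CPM scaled by TMM factors. Egfem1, the leading gene of the class in nuclei, stood at 0 to 0.256 CPM in the 24 h libraries and was not tested.

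At 24 h, 3 of the 9 were called, all higher, beside 27.3% of all genes called and 14.2% called higher. Calb1 ran from 132 to 199 CPM in sham (median 159.6) and from 183 to 308 in UNx (median 274). All 6 UNx kidneys lay above the sham mean and the groups overlapped in 1 UNx library, with a log2 fold change of 0.67 ± 0.12 and an edgeR adjusted p of 0.0014. Slc8a1 ran from 134 to 188 CPM in sham (median 151) and from 151 to 250.1 in UNx (median 199), with 5 of 6 UNx kidneys above the sham mean. Its log2 fold change was 0.36 ± 0.11 with an edgeR adjusted p of 0.024. This call was lost without sham replicate 3, 5 or 6 or UNx replicate 5 or 6, with log2 fold changes of 0.33, 0.32, 0.35, 0.33 and 0.29. It was also lost with the replicate number as a block (adjusted p = 0.057). The labels put all bulk libraries of 24 h in batch 1 and do not tie the number to pairs of mice, so that loss says little. Cdo1 ran from 85.5 to 106 CPM in sham (median 100.2) and from 107 to 153 in UNx (median 131), without overlap, with a log2 fold change of 0.41 ± 0.08 and an edgeR adjusted p of 0.0015. So at 24 h Slc8a1 was higher in UNx in bulk and within both batches of CNT nuclei. Calb1 was higher in bulk and went both ways in CNT nuclei, 1.09 times in batch 3 and 0.731 times in batch 4. In DCT nuclei Calb1 was lower in both batches. Scnn1g, Slc2a9, Trpv5, Adamts16, AI838599 and Depdc7 were not called.

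At the same hour, Vdr, S100g and Wnk4 were read in bulk after their values in nuclei were seen. Vdr averaged 289 ± 16.9 CPM in sham and 262 ± 24.8 in UNx (n = 6; log2 fold change -0.14, edgeR adjusted p = 0.12). Wnk4 fell by 0.28 on the log2 scale, from 162 ± 12.9 to 134 ± 14.0 CPM (edgeR adjusted p = 0.011), and S100g rose by 0.46, from 115 ± 28.7 to 158.5 ± 22.4 (edgeR adjusted p = 0.023). In all 3 genes the sign in bulk, where RNA of all cell types is counted, was opposite to that in CNT nuclei. The S100g call was lost without sham replicate 5 or 6 or UNx replicate 5, with log2 fold changes of 0.39, 0.40 and 0.42.

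At 48 h, 1 of the 9 was called, beside 32.9% of all genes called and 16.0% called lower. Adamts16 fell by 0.53 on the log2 scale, from 2.36 ± 0.43 to 1.64 ± 0.33 CPM (edgeR adjusted p = 0.033). The call was lost without sham replicate 3 or 6 or UNx replicate 2, 3 or 4. It was also lost with the replicate number as a block (adjusted p = 0.074), a number that the labels do not tie to pairs of mice in bulk. Slc8a1 averaged 168 ± 49.0 CPM in sham and 168 ± 28.2 in UNx (edgeR adjusted p = 0.98), and Calb1 381 ± 116 in sham and 305 ± 55.2 in UNx (edgeR adjusted p = 0.19). The sham kidneys at 48 h stood in 2 sets that the labels do not name: replicates 1, 2 and 3 had Slc8a1 at 143, 117 and 123 CPM and Calb1 at 284, 279 and 271, and replicates 4, 5 and 6 had Slc8a1 at 220, 231 and 174 and Calb1 at 527, 475 and 453. The median share of mitochondrially encoded counts at 48 h was 14.7% in sham and 26.1% in UNx, and its part in these results was not tested. At 72 h, 0 of the 9 were called, beside 1.71% of all genes, and Slc8a1 averaged 229.9 ± 39.6 in sham and 245 ± 34.8 in UNx. The lowest edgeR adjusted p among the class genes at 72 h was 0.11, for Slc2a9, at 17.1 ± 0.82 CPM in sham and 14.4 ± 1.55 in UNx, where all 6 UNx kidneys lay below the sham mean.

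**Figure D5:**
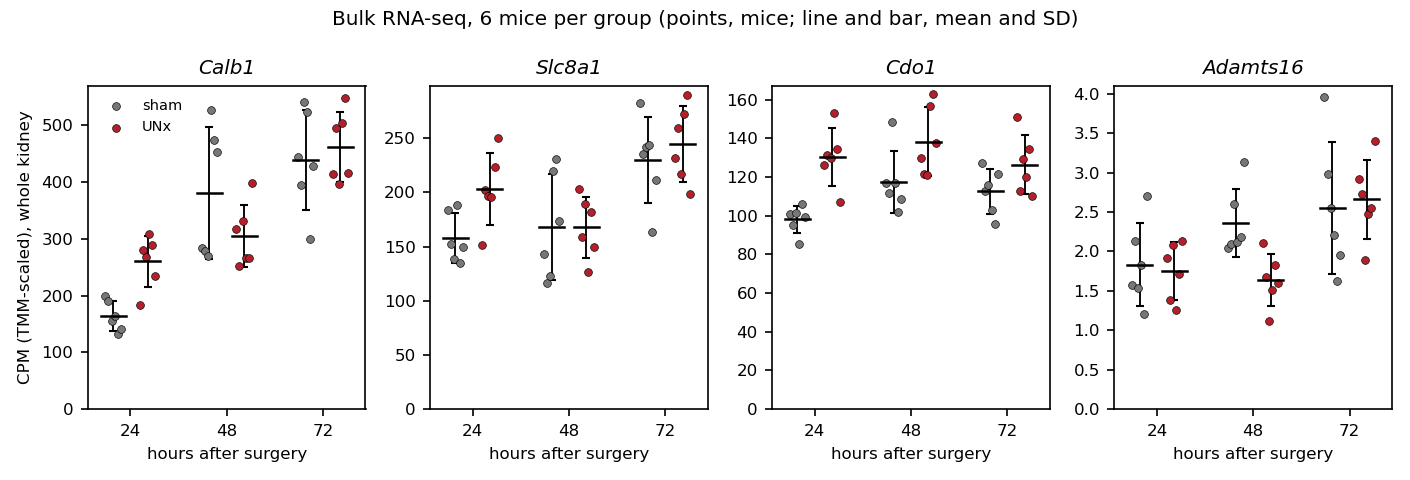
Levels of the 4 class genes called at any time in bulk RNA (CPM scaled by TMM factors) at 24, 48 and 72 h, with each point 1 mouse and the mean and SD of each group of 6. Calb1, Slc8a1 and Cdo1 are higher in UNx at 24 h, Adamts16 is lower at 48 h, and in all 4 genes the groups overlap at 72 h.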

How the data were processed

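Single-nucleus RNA-seq of 4 right kidneys and bulk RNA-seq of 36 were analysed. The deposited tables hold estimated counts that the authors made without normalization: UMIs per gene and nucleus from alevin and Seurat on mm10, and counts per gene from Salmon 1.5.0 after FastQC 0.11.8 on GRCm39 with R 4.10, per the submitters' processing notes, which give no settings. Of the nucleus values above 0, 13.9% are not whole. How the authors filtered nuclei or removed doublets is not stated here, and no doublet caller was applied. The class of each nucleus comes from the authors' deposited annotation. Reads of near-identical gene copies are shared out by such estimates, so families of close copies are uncertain.

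UMIs of CNT nuclei were summed per mouse, rounded, and tested over 10262 genes with edgeR 4.0.16 in R 4.3.3 (filterByExpr, TMM factors of 0.950 to 1.02, quasi-likelihood test, Benjamini-Hochberg adjusted p under 0.05, two-sided). Printed nucleus levels are plain CPM of those sums, and bulk levels are CPM scaled by TMM. In the split by Slc8a1 the CPM leaves its UMIs out of the total. Interactions were fitted on sums of 2 classes with the mouse as a block. Bulk was fitted within each time point. Standard errors were derived from each log2 fold change and its F statistic. Alternatives were DESeq2 1.42.0 and its size factors, limma 3.58.1 voom, no filter, thinning, other sets of nuclei or genes, leaving out each replicate, and the replicate number as a block. The scripts were tested on simulated data. In the nuclei the labels tie the replicate number to batch 3 or 4, so blocked values stand beside the results. Mice of the same number deviated together from their group means (correlation of deviations 0.803 over genes). With 2 mice per group both pairs give this same value by construction, so it counts once. No pair of libraries agreed within sampling noise (chi-square per gene of 3.75 to 24.0). The labels name separate mice.

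Bulk IDs were paired with symbols through GENCODE M21, which left 127 of 28467 genes without a symbol. Coordinates are those of M21 on mm10, and promoters come from RefSeq on GRCm38.p6. The rule for naming took, per direction, called genes or, where fewer than 10 were called, the 10 of lowest p whose groups do not overlap, the 3 of lowest p for each interaction, the leading genes, and members of fixed lists. Predicted genes were passed over. The class, the lists and the rule were chosen with earlier results of these data known. Genes outside the rule are said to be so.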

Additional observations from a re-analysis of the deposited data

Results flagged for a closer look

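In 6 of 60 bulk groups of 6 kidneys examined for class genes, the highest or lowest kidney stood far from the other 5 (by Dixon's criterion on the gap to the nearest kidney over the group's range). Chance gives this in about 1 of 20 groups. These were Cdo1 at 48 h in sham replicate 3 (148 CPM), Depdc7 at 24 h in sham replicate 4 (24.7 CPM) and at 72 h in sham replicate 2 (29.7 CPM), Slc2a9 at 24 h in sham replicate 6 (14.7 CPM) and at 72 h in UNx replicate 1 (11.3 CPM), and Trpv5 at 24 h in UNx replicate 1 (10.5 CPM). Without sham replicate 3, Cdo1 at 48 h had a log2 fold change of 0.32 in place of 0.24 and an edgeR adjusted p of 0.018 in place of 0.074.

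For 9 named genes the ratio of UNx to sham went one way in both batches of CNT nuclei and the other way in both batches of a neighbouring class. Against DCT the differences of log2 fold change, CNT minus DCT, were 1.45 for Defb1, 0.82 for AI838599, -0.50 for Slc2a9, -1.14 for Zfp981 and -2.21 for Zbtb16. Against CPC they were 2.11 for Alcam, 3.25 for Nup85, 0.54 for AI838599, -2.09 for Wdr78 and -3.26 for Slc22a15. The edgeR test of each difference gave an adjusted p of 1, so none passed.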

How the results depend on the processing

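With 2 mice a group and a batch shared by 1 mouse of each, the count of genes called in CNT nuclei depended on the block. It was 0 in the fit without it and under the alternatives without it that were run, and 47 with the replicate block in edgeR. With the replicate block it was 36 with only nuclei of at most 20000 UMIs (chosen after seeing the data, as were the next 5), 10 with DESeq2, 67 with voom, 43 with DESeq2 size factors, 33 without proximal tubule and mitochondrially encoded genes and 115 with sums thinned to the lowest. Of the 47 genes, 28, 8, 43, 43, 21 and 46 were among these. The interactions called 9 genes each against DCT and CPC with no filter, and leaving out 1 mouse gave 0 to 2 against CPC (2 without UNx replicate 1 and 2 without UNx replicate 2) and 0 against DCT. In bulk at 48 h the count of class genes called was 2 with DESeq2, 0 with no filter, 0 with the replicate block and 0 for genes at least 4 times above every other class, and 0 to 2 without 1 kidney. In bulk the numbers are those of the labels, which do not tie them to pairs of mice, and at 24 h the replicate block gave 2 calls. The difference in the share of nuclei was -1.20 percentage points outside the proximal tubule classes. The mean share of CNT nuclei with an Aqp2 UMI was 26.8% after thinning and 54.9% before. Leaving out 1 mouse turned the sign of these uncalled or block-called log2 fold changes in CNT nuclei: Calb1 (-0.69 to 0.40), Scnn1g (-0.80 to 0.28), Slc2a9 (-0.64 to 0.0485), Trpv5 (-0.97 to 0.46), Adamts16 (-0.76 to 0.10), Cdo1 (-0.75 to 0.67), Kl (-0.0500 to 0.77), Scnn1b (-0.17 to 0.72), Oprm1 (-3.27 to 1.29), Hspa5 (-0.34 to 2.54), Keg1 (-3.74 to 1.45) and mt-Nd5 (-1.87 to 4.09). Slc8a1 kept its direction, from 0.17 without UNx replicate 1 to 1.597 without sham replicate 1. In bulk the sign turned for Adamts16 at 24 h (-0.15 to 0.0724) and 72 h (-0.0341 to 0.24), Slc8a1 at 48 h (-0.0796 to 0.12) and Calb1 at 72 h (-0.0121 to 0.15). The cause of these changes was not tested.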
